A study of Mus musculus with 69 samples.

Results

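A set of 46 genes of DNA replication and mitosis was followed through sorted mouse bone marrow populations and through acute promyelocytic leukemias (APL) on Affymetrix Mouse Exon 1.0 ST arrays. Of these genes, 17 act in the start and course of DNA replication and 29 act in mitosis. They were listed by name as well-known proliferation genes. A gene was read through the probesets, groups of probes that each cover about an exon, that the platform annotation gives to that gene alone. Its value is the median log2 intensity of those of its probesets that reached 200, the noise threshold of the study, on at least 1 array. On this rule 43 of the 46 genes were measured, 15 for replication and 28 for mitosis, through 748 of their 795 probesets and among 18113 genes tested in all. No probeset carried Ccnb1 or Pcna as its single gene name, and the 1 probeset of Rrm2 stayed under 200 on all 69 arrays, so these 3 genes were not analysed here.

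The study asked how PML-RARA, the fusion oncogene of APL, changes expression in young marrow before leukemia appears. In the mCG-PR mice (Ctsg-PML-RARA) the fusion is expressed from the murine Ctsg locus, so its level follows that promoter, which is active mainly in early myeloid cells. All sorted cells came from marrow of individual mice on the Bl/6 Taconic background, and 20 ng of total RNA was amplified for each array. Promyelocytes (Pro) and neutrophils (PMN) were sorted by Gr1 and side scatter, and the other populations by Kit, Sca-1 and lineage gates with CD34 and Fcγ receptors or with CD150, CD41 and CD48. SLAM cells, a gate enriched for long-term stem cells, were taken from 2 WT mice at 6 weeks and 2 mCG-PR mice at 7 weeks. KLS cells, stem cells and multipotent progenitors, had 4 WT samples at 12 to 13 weeks and 5 mCG-PR samples, of which 2 were at 13 and 3 at 6 weeks. There were 3 WT and 4 mCG-PR samples of common myeloid progenitors (CMP), and 4 of each genotype for granulocyte-monocyte progenitors (GMP) and megakaryocyte-erythrocyte progenitors (MEP), with WT mice at 7 weeks and mCG-PR mice at 9 weeks. For promyelocytes there were 6 WT and 3 mCG-PR samples and for neutrophils 4 and 3, all at 6 weeks. The mCG-PR mice were backcrossed 17 generations for SLAM and KLS cells, 22 for promyelocytes and neutrophils and 24 for CMP, GMP and MEP. The 15 APL samples came from spleens of mCG-PR mice backcrossed 10 generations and were 238 to 553 days old, and 2 more KLS samples came from 10-week Ctsg KO mice on Bl/6, also backcrossed 10 generations.

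The members divide the cell cycle between them. Before S phase, Cdc6 and Cdt1 load the MCM2 to MCM7 helicase on replication origins, and E2F factors and cyclin E bring the cell into S phase, where the helicase opens DNA and ribonucleotide reductase and thymidylate synthase supply nucleotides. In mitosis, cyclins A and B, Plk1 and the Aurora kinases drive spindle assembly, centromere proteins and kinesins move the chromosomes, and Cdc20 and Ube2c work with the anaphase-promoting complex to end it. In marrow, long-term stem cells are known to be mostly quiescent, committed progenitors divide quickly, and neutrophils stop dividing as they mature.

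Promoters of 4 mitosis and 4 replication genes are printed as examples of the motifs described next. They were picked by hand with their matches known, all 8 carry a motif, and the replication genes are the 4 with TTTGGCGC, so their share of matches says nothing about the set. RefSeq promoters of the GRCm38.p6 build, each with 250 bases before and 50 after the start of the gene, were matched for 38 of the 46 members. Capitals mark matches, on either strand, to TTTGAA (the core of the cell cycle homology region of mitosis genes), or to TTTGGCGC or TTTCCCGC (E2F-type sites of G1/S genes).

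Plk1 promoter, chr7:122159185-122159484, plus strand: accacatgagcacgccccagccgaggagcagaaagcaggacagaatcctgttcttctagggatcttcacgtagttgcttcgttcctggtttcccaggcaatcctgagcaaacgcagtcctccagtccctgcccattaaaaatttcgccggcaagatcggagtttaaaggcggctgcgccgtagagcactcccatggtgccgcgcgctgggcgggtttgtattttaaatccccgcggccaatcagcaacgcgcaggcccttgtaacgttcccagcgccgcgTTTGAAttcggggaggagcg
Cdc20 promoter, chr4:118437294-118437593, minus strand: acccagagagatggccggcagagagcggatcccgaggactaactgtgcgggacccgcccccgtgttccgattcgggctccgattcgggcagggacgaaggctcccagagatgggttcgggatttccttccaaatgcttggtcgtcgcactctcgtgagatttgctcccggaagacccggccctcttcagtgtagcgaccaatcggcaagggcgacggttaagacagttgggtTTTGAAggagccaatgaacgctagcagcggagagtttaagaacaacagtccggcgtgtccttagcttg
Ube2c promoter, chr2:164769679-164769978, plus strand: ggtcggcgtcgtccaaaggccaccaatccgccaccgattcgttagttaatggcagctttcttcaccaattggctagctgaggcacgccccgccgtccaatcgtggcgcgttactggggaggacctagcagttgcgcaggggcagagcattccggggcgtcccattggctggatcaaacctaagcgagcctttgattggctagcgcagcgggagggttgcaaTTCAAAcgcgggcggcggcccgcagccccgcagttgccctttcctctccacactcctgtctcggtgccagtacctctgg
Kif23 promoter, chr9:61946750-61947049, minus strand: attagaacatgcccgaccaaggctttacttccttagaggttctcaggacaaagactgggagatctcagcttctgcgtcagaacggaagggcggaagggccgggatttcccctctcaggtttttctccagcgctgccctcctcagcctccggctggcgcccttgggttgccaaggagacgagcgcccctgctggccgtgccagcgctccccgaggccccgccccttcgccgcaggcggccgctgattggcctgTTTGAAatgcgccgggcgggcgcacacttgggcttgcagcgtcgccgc
Mcm3 promoter, chr1:20820263-20820562, minus strand: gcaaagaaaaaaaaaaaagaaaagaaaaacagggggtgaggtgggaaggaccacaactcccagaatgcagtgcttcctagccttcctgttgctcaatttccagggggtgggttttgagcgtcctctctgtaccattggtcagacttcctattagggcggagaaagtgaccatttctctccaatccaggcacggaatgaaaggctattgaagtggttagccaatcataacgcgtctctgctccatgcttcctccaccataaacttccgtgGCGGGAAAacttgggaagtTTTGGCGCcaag
Mcm5 promoter, chr8:75109259-75109558, plus strand: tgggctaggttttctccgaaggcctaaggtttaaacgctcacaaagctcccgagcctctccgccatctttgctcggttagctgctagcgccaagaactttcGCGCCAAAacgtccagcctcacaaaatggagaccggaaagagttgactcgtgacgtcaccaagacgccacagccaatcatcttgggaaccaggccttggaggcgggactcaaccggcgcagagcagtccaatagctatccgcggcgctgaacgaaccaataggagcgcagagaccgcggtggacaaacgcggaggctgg
Mcm6 promoter, chr1:128359656-128359955, minus strand: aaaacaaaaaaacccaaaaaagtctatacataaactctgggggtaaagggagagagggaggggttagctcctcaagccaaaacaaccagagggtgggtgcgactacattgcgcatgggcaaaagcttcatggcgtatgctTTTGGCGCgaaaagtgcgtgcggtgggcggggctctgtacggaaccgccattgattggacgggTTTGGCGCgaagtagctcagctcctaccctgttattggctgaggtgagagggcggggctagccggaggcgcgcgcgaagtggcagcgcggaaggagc
Cdt1 promoter, chr8:122567765-122568064, plus strand: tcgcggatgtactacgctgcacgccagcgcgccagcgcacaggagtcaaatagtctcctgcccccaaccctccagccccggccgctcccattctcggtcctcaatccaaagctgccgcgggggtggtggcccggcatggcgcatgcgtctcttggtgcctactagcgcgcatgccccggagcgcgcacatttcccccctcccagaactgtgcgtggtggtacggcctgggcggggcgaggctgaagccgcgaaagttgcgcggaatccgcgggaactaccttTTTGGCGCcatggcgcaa

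TTTGAA occurred in promoters of 18 of 24 mitosis genes and of 1 of 14 replication genes, against 17.9% of all 32851 promoters. In 17 mitosis genes it began within 50 bases of the start, which held for 4.94% of all promoters. TTTGGCGC stood in promoters of 4 of 14 replication genes and 0 of 24 mitosis genes, against 0.514% of all promoters, and TTTCCCGC in 3 and 1, against 1.07%. At least 1 of these E2F-type motifs was found in 6 replication genes and 1 mitosis gene, against 1.56% of all promoters. CCAAT, searched on both strands and not marked above, was found for 9 replication and 20 mitosis genes and in 37.4% of all promoters. A gene was counted where any of its promoters matched, while the shares of all are per promoter. Matches to different motifs can share only end bases, and a match is a description of the letters, not a bound site.

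Over the whole series at most 25.1% of probesets reached 200 on any array, and no 2 arrays held identical values. The array numbers in the titles fall into 7 runs, and CMP, GMP and MEP fill a run of their own, as do mCG-PR promyelocytes with mCG-PR neutrophils, so differences of these from the rest cannot be told apart from run. The gates were checked by summed marker intensities. The 8 erythroid markers summed to 10236 to 11815 in MEP and to at most 4159 elsewhere, 11 neutrophil markers to 56439 to 67120 in neutrophils and 22842 to 40037 in promyelocytes, and 6 stem and progenitor markers to 3885 to 6046 in SLAM and KLS cells. The libraries labelled Ctsg KO KLS went against their label, with stem and progenitor sums of 520 and 613 and neutrophil sums of 51574 and 52104, so their values are given apart. In CMP the 4 primary granule markers summed to 15922 to 35824, against 22020 to 38125 in GMP, and 0% of all genes were called between those populations. In WT mice the marker sums crossed between these labels. The stem and progenitor sums were 1309, 503 and 441 in WT CMP 4111, 4112 and 4113. In WT GMP 4210, 4211, 4212 and 4213 they were 618, 583, 1456 and 1150. The erythroid sums were 2728, 929 and 1040, and 1230, 1312, 2529 and 2612, in the same order. The labels were kept, and an exchange of samples was not tested. WT SLAM replicate 2 also stood apart, with a neutrophil sum of 26333 against 9178 in replicate 1. So did WT neutrophil replicate 1, with a primary granule sum of 15276. The other neutrophil samples had 5639 to 7611 and WT promyelocytes 8812 to 12738. In such bulk samples, more cells in cycle and more transcript per cell cannot be told apart.

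The median intensity of the 43 members was lowest in SLAM cells, higher in KLS cells and highest in MEP, and was lower again in promyelocytes and neutrophils. It was 96.7 and 103 in the mCG-PR and 94.0 and 134 in the WT SLAM samples. The lowest, median and highest samples stood at 139, 151 and 224 in WT KLS cells and at 221, 233 and 250.1 in mCG-PR KLS cells. CMP had 516, 521 and 549.9 in WT and 338, 423 and 569 in mCG-PR mice, and GMP 450.1, 489.5 and 544 and 341, 458 and 579, so these 2 populations overlapped. MEP reached 683, 712 and 764 in WT and 559.7, 620.4 and 764 in mCG-PR mice. Promyelocytes were lower again, at 219, 251 and 316 in WT and 302, 315 and 328 in mCG-PR mice, neutrophils at 216, 269 and 292 and 209, 221 and 355, and the leukemias at 176, 273 and 319. Of the 43 members, 31 had their highest group median in WT MEP and 6 in mCG-PR MEP, and 34 had their lowest in SLAM cells of either genotype.

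**Figure D1:**
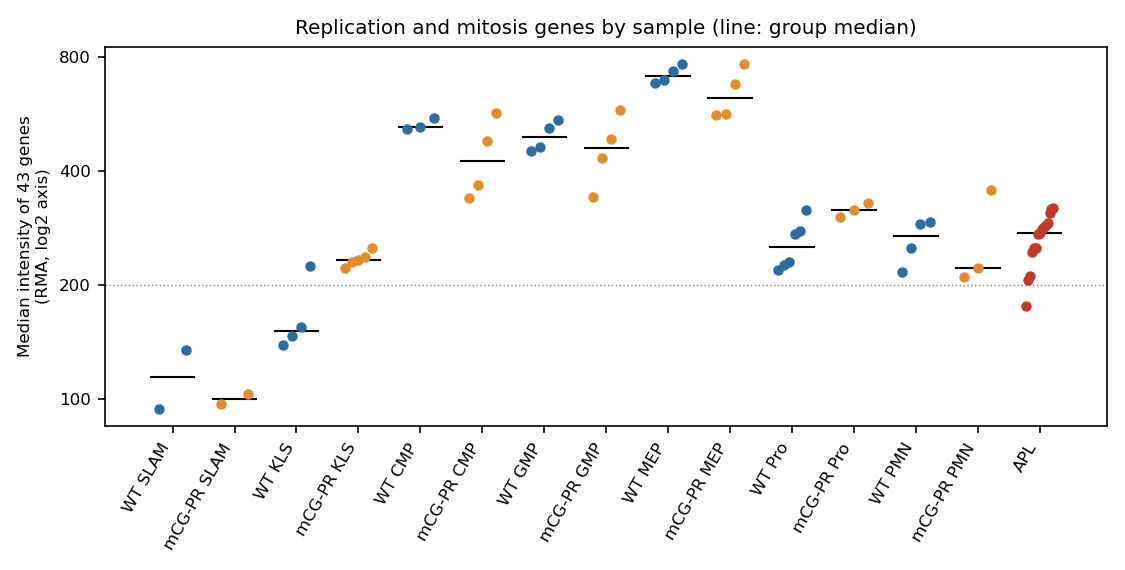
Median intensity of the 43 measured members in each sample (RMA intensity, log2 axis), 1 point a sample by group, with a line at the group median and a dotted line at 200. All SLAM samples lie between 94.0 and 134, and the WT MEP samples lie between 683 and 764.

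**Figure D2:**
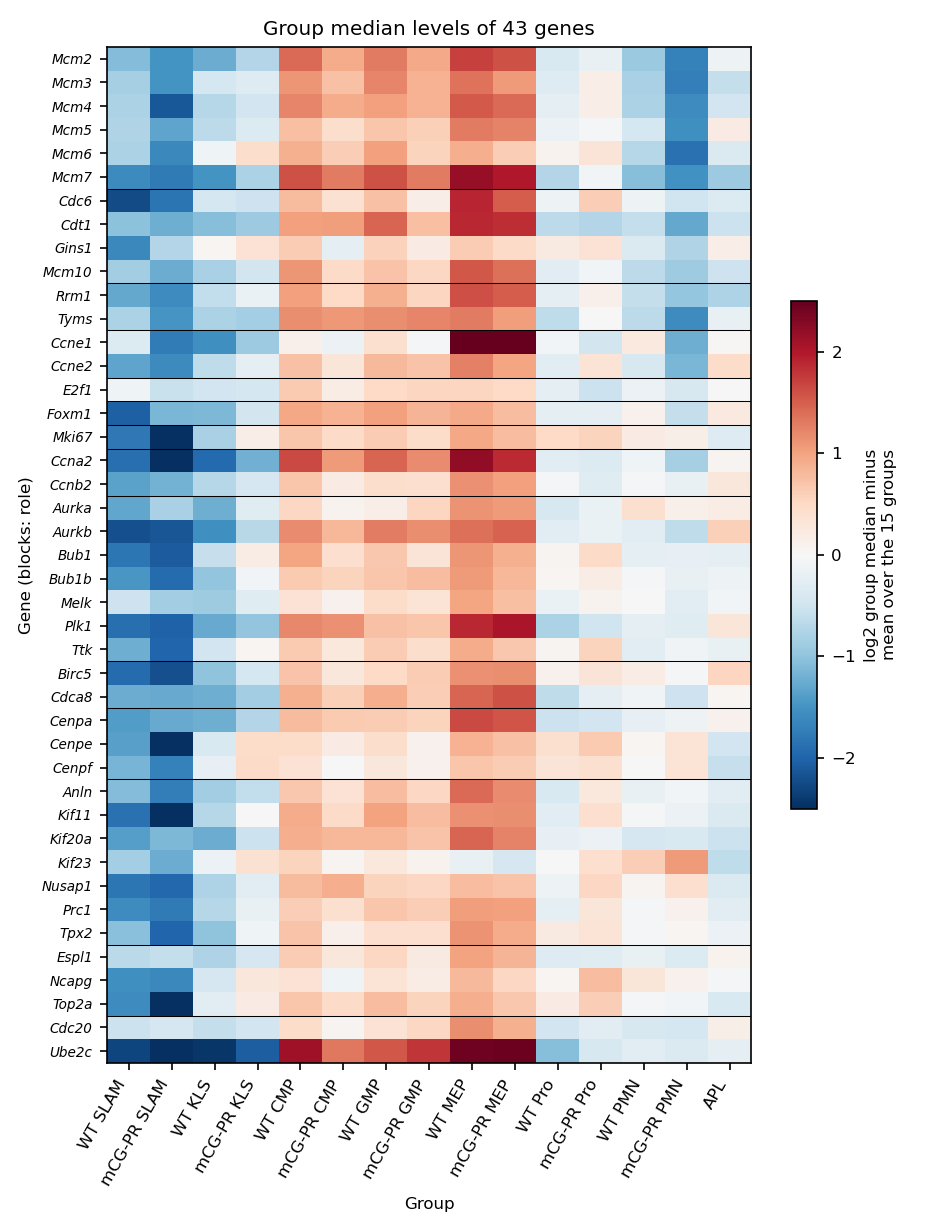
Log2 of the group median intensity of each of the 43 measured members minus the gene's mean over the 15 groups shown (color scale), with genes down the side in blocks of 1 role and groups along the bottom. Of the 43 genes, 37 have their highest group median in MEP of either genotype and 34 their lowest in SLAM cells.

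From SLAM to KLS cells, 30 of 43 members were called higher and 0 lower, against 11.9% of all genes called higher. A call here is an adjusted p under 0.05 in limma, with Benjamini-Hochberg adjustment over all 18113 genes and the steps averaged over both genotypes. The median difference of the members was 0.91 on the log2 scale, against -0.06 over all genes. The genes with the largest rise were Top2a, the topoisomerase that untangles sister chromatids, and Cenpe, the kinesin that carries chromosomes at the centromere. Top2a read 140.3 and 421 in WT and 111 and 126 in mCG-PR SLAM samples, and 655, 454, 914 and 729.8 in WT and 824, 965, 876, 1378 and 1249 in mCG-PR KLS samples. No SLAM sample reached the KLS range, and the difference on the log2 scale, given here with its standard error, was 2.29 ± 0.24, adjusted p = 1.38e-09, with 39 of its 43 probesets moving that way. Cenpe stayed under 200 in every SLAM sample, so its rise of 2.13 ± 0.31, adjusted p = 1.49e-06, stands for at least 1.46-fold. In 21 members no KLS sample overlapped a SLAM sample and KLS was higher, which held for 5.24% of all genes.

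Mki67, the antigen that marks cycling cells, followed the same course. It read 295 and 304 in WT and 169.9 and 152 in mCG-PR SLAM samples, against 479, 421, 1033 and 699 in WT and 1099.6, 1153, 1060.3, 1200.4 and 1311 in mCG-PR KLS samples. The WT KLS samples were thus between the SLAM and the mCG-PR KLS samples. Of the 13 members not called, Cdc20, E2f1 and Ccne1 were under 200 in every SLAM and KLS sample, except Ccne1 at 219 in WT SLAM replicate 2, with Cdc20 at 130.4 and 87.2 in WT SLAM and 105, 101, 106 and 104 in WT KLS samples. Of the 30 called, Cdc6, Mcm10, Plk1 and Kif20a were under 200 in every sample of both populations, so they have no fold. Gins1, a subunit of the complex that works with the helicase at the fork, rose by 1.45 ± 0.21, or at least 1.43-fold since SLAM samples were under 200, and Mcm6 by 1.43 ± 0.17. With WT samples alone 11 members were called higher, and with mCG-PR samples alone, which share 1 array run, 29. The shares of all genes called in these fits were not computed, so the counts cannot be set against the genes as a whole. Without WT SLAM replicate 2, the sample with the high neutrophil sum, the median was 1.17, and the part of other cells in it was not tested.

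Other genes of the same pathways were read from lists by function. Of the other mitosis genes 48 of 61 were higher, of the other replication genes 33 of 46, of the checkpoint and repair genes 15 of 20, with 0 lower in each. Wdhd1, an adaptor at the replication fork, rose by 2.08 ± 0.26, adjusted p = 6.07e-08, and Cenpk, a centromere protein, by 2.28 ± 0.23, adjusted p = 1.29e-09. Among G1 regulators 5 of 22 rose, led by Cdk6, the kinase that works with D cyclins, at 3.39 ± 0.24, adjusted p = 3.66e-14.

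From KLS cells to CMP, 38 of 43 members were called higher and 0 lower, against 28.5% of all genes called higher, with a median of 1.05 against -0.06 over all genes. Ube2c, the ubiquitin-conjugating enzyme of the anaphase-promoting complex, had the largest difference. It read 110.1, 140.3, 165 and 118 in WT and 128, 166, 232, 165 and 221 in mCG-PR KLS samples, and 3021, 3149 and 1963 in WT and 1105, 1372, 2464 and 2087 in mCG-PR CMP samples. Every CMP sample was thus above every KLS sample, and the difference of 3.78 ± 0.20, adjusted p = 1.45e-19, has no exact fold, since 7 of the 9 KLS samples were under 200. Ccna2, cyclin A, rose by 2.92 ± 0.19, adjusted p = 8.46e-17, or 7.58-fold. Its median in WT KLS samples was 157, under 200, so this fold is not exact. The helicase genes Mcm2 to Mcm7 all rose, from 0.57 ± 0.14, adjusted p = 6.52e-04, for Mcm6 to 2.43 ± 0.21, adjusted p = 5.19e-13, for Mcm7, which was under 200 in every KLS sample and so rose at least 3.18-fold. The 5 members not called were Gins1, Cenpf, Ncapg, Kif23 and Cenpe, with differences from -0.09 to 0.18.

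The size of this step depended on how a gene is read from its probesets. With each gene's probeset of highest mean in place of the median probeset, 16 members were called higher and 10 lower, with a median of 0.22. Ube2c (3 of its 3 probesets) and Plk1 (7 of its 7 probesets) had every probeset on one side, while Kif23 had 11 of its 28 probesets on the side of its median. E2f1, the factor that switches on G1/S genes, was 113, 91.7, 119 and 133 in WT KLS and 230.3, 254 and 262 in WT CMP samples, but 195, 91.6, 173 and 214 in mCG-PR CMP samples. Its difference over both genotypes was 0.78 ± 0.13, adjusted p = 2.78e-06. All KLS and 3 of the 4 mCG-PR CMP samples were under 200, and no fold is given. Of the listed genes beyond the members, 42 of 61 mitosis, 32 of 46 replication and 15 of 22 G1 genes were higher, and 2 of 61, 4 of 46 and 0 of 22 lower. Pold2, a subunit of the replicative polymerase delta, rose by 2.32 ± 0.18, adjusted p = 8.52e-15, and Orc4, an origin recognition subunit, fell by 1.09 ± 0.22. The CMP arrays form a number run apart from the KLS arrays, so population and run cannot be told apart at this step.

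Between CMP and GMP, 0 of 43 members were called in limma, with 0 at an unadjusted p under 0.05. The members' median was 0.04, and 0% of all genes were called. Some WT CMP and WT GMP samples had marker sums nearer the other label, as given above, and all of them enter this step. The lack of calls therefore cannot show that the populations are alike. Mcm5, a helicase subunit, read 521, 580.1 and 516 in WT CMP and 542, 615, 462 and 402 in WT GMP samples.

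MEP had the highest levels of most members. Against CMP, 28 members were called higher and 1 lower, with a median of 0.56, where 17.5% of all genes were called higher and 13.8% lower. Against GMP, 26 were higher and 1 lower, with a median of 0.52, where the shares of all genes were 18.8% and 14.7%. Both contrasts share the MEP samples.

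Ccne1, cyclin E1, which with Cdk2 starts S phase, set MEP apart most. It read 1468, 1451, 1329 and 1331 in WT and 1149.5, 1264, 1141 and 991 in mCG-PR MEP samples. In CMP it read 165, 205 and 194 in WT and 269.6, 88.6, 169.7 and 153 in mCG-PR samples, and in GMP 209.9, 308, 172 and 258 and 198, 196, 153 and 108. The lowest MEP sample was above the highest of every other group. The difference was 2.87 ± 0.22, adjusted p = 9.44e-15, against CMP and 2.71 ± 0.21, adjusted p = 1.32e-14, against GMP. All 13 probesets were higher in both contrasts. These differences stand for 7.31-fold and 6.54-fold, which are not exact, since most CMP and GMP samples were under 200. Ccne2, cyclin E2, differed less, by 0.56 ± 0.18, adjusted p = 0.0121, against CMP.

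Cdc6, the licensing factor, had the next largest difference, 1.21 ± 0.15, adjusted p = 6.90e-09, against CMP and 1.28 ± 0.14, adjusted p = 5.64e-10, against GMP. The only member called lower in MEP was Kif23, a kinesin of the midbody that acts in the last step of cell division. It read 318, 258, 329 and 328 in WT MEP samples against 411, 549.9 and 539 in WT CMP and 476, 527, 407 and 364 in WT GMP samples, and 227, 329.6, 323 and 214 in mCG-PR MEP samples. Its difference was -0.61 ± 0.18, adjusted p = 0.00784, against CMP and -0.59 ± 0.17, adjusted p = 0.00614, against GMP, with 25 of its 28 probesets lower. Cdc20, the activator of the anaphase-promoting complex, read 268, 409, 382 and 322 in WT MEP and 217, 220.2 and 172 in WT CMP samples. Foxm1, the transcription factor of mitosis genes, and E2f1 were not called in either contrast, at 0.01 ± 0.20 and 0.25 ± 0.13 against CMP.

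With each gene's probeset of highest mean, 13 members were called against CMP and 10 against GMP, and with WT samples alone 10 and 16. A change of at least 2-fold was reached by 2 members against CMP and 4 against GMP. Among the listed genes, 35 of 61 mitosis and 29 of 46 replication genes were higher in MEP than in CMP. Orc5, an origin recognition subunit, was higher by 1.55 ± 0.15, adjusted p = 7.76e-12, and Aspm, a spindle pole protein, by 1.09 ± 0.20, adjusted p = 2.64e-05. Cep55, which like Kif23 acts at the midbody, differed by -2.23 ± 0.15, adjusted p = 8.30e-17. Of 7 CDK inhibitors 1 was called, Cdkn1a (p21), at -1.50 ± 0.23, adjusted p = 8.94e-07, and among G1 genes E2f4, a pocket protein partner, was higher by 1.39 ± 0.14, adjusted p = 8.67e-11.

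From GMP to promyelocytes, 29 of 43 members were called lower and 0 higher, against 24.6% of all genes called lower, and the median was -0.68 against 0.02 over all genes. Ube2c had the largest fall, from 2711, 2342, 1752 and 1646 in WT and 2681, 1383, 3338 and 2137 in mCG-PR GMP samples to 449.6, 625 and 528 in mCG-PR promyelocytes, while the 6 WT promyelocyte samples ran from 206 to 406 with a median of 331. No promyelocyte sample reached the GMP range, and the difference was -2.42 ± 0.20, adjusted p = 1.06e-13. Cdt1, the loader of the helicase, differed by -1.81 ± 0.12, adjusted p = 1.22e-15, with 11 of its 12 probesets lower. Mcm7 (-1.65 ± 0.21), Ccna2 (-1.60 ± 0.19) and Plk1, the kinase of mitotic entry (-1.48 ± 0.16), followed.

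Several members that had led the SLAM to KLS step were not among those that fell. Mki67 (-0.14 ± 0.19), Top2a (-0.20 ± 0.20), Cenpe (0.08 ± 0.25) and Cenpf (0.13 ± 0.19) were not called. Mki67 read 1605, 1681, 1605 and 1558 in WT GMP samples and ran from 560.3 to 1792 with a median of 1460.5 in WT promyelocytes. With each gene's probeset of highest mean, 13 members were called higher and 9 lower and the median turned to 0.10, so the direction over the members depends on the probeset that stands for a gene.

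Among listed genes 29 of 61 mitosis, 25 of 46 replication, 12 of 20 checkpoint and 11 of 22 G1 genes were lower in promyelocytes. Cdk4, the partner of D cyclins, differed by -1.38 ± 0.15, adjusted p = 4.45e-10, and Cdkn2d, the inhibitor of Cdk4 and Cdk6 known as p19, was higher by 2.87 ± 0.58, adjusted p = 7.89e-05. The GMP arrays form their own number run, so population and run cannot be told apart.

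From promyelocytes to neutrophils the replication and the mitosis genes parted. Of 15 replication genes 12 were called lower and 0 higher, with a median of -0.75. Of 28 mitosis genes 2 were lower and 5 higher, with a median of -0.04. Over all genes 19.4% were called lower and 12.9% higher, with a median of 0.04. The difference between these sets of genes was not tested, and it is given as counts and medians. Markers of other cells were also lower in WT neutrophils than in WT promyelocytes, with 421 to 1303 against 1950 to 4319 for the 5 T and NK cell markers, 576 to 1205 against 1492 to 2698 for the 5 dendritic cell markers and 391 to 438 against 780.0 to 1384 for the 6 stem and progenitor markers, and their part was not tested. In intensity, the median replication gene stood at 203 in WT and 136 in mCG-PR neutrophils, and the median mitosis gene at 308 and 270.3.

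All 6 measured helicase genes were called lower in neutrophils, led by Mcm6 and Mcm3. Mcm6 ran from 762 to 1299.7 with a median of 888 in WT promyelocytes and read 1060.0, 834 and 1042 in mCG-PR promyelocytes. In neutrophils it read 667, 303, 533 and 482 in WT and 229.6, 253 and 229.7 in mCG-PR mice. Every neutrophil sample was below every promyelocyte sample, and the difference was -1.49 ± 0.14, adjusted p = 1.63e-11, with 20 of its 21 probesets lower. Mcm3 differed by -1.24 ± 0.14, adjusted p = 2.13e-09, and Mcm4, Mcm2, Mcm7 and Mcm5 by -1.11, -0.95, -0.92 and -0.75. Nucleotide supply genes moved with them, with Rrm1, the large subunit of ribonucleotide reductase, at -0.82 ± 0.15, adjusted p = 2.28e-05, and Tyms, thymidylate synthase, at -0.75 ± 0.14, adjusted p = 2.10e-05. Every neutrophil sample was under 200 for Mcm7, Mcm10, Cdc6 and Tyms, so of these only Tyms has a fold, at least 1.01-fold lower. The 3 replication genes not called were Cdt1, Ccne1 and E2f1, at -0.27, -0.24 and 0.10.

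The mitosis genes called higher in neutrophils were Kif23, Ube2c, Aurka, Plk1 and Cenpa. Kif23 read 428, 345, 688 and 718 in WT and 817, 767 and 709 in mCG-PR neutrophils, against 486, 519.6 and 455 in mCG-PR promyelocytes, while the WT promyelocytes ran from 230.2 to 579 with a median of 364. The groups overlapped in WT mice and not in mCG-PR mice. Its difference was 0.58 ± 0.18, adjusted p = 0.011, with 28 of its 28 probesets higher. Ube2c differed by 0.57 ± 0.20, adjusted p = 0.0273. Bub1, a kinase of the spindle checkpoint (-0.52 ± 0.20), and Top2a (-0.52 ± 0.21) were lower. With the probeset of highest mean, 16 members were called lower and 0 higher, so whether these 5 genes were called depends on how the gene was read. Most of their probesets were higher in neutrophils, with 3 of 3 for Ube2c, 7 of 7 for Plk1, 9 of 10 for Aurka and 8 of 10 for Cenpa. With WT samples alone 2 members were called higher and 3 lower. Within mCG-PR mice, whose promyelocytes and neutrophils share 1 array run, 12 were lower and 0 higher. Leaving out WT neutrophil replicate 1 or 2, mCG-PR promyelocyte replicate 3 or mCG-PR neutrophil replicate 2 left 1 member higher, and leaving out mCG-PR promyelocyte replicate 1 left 2, while 12 to 15 stayed lower over all samples left out in turn.

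**Figure D3:**
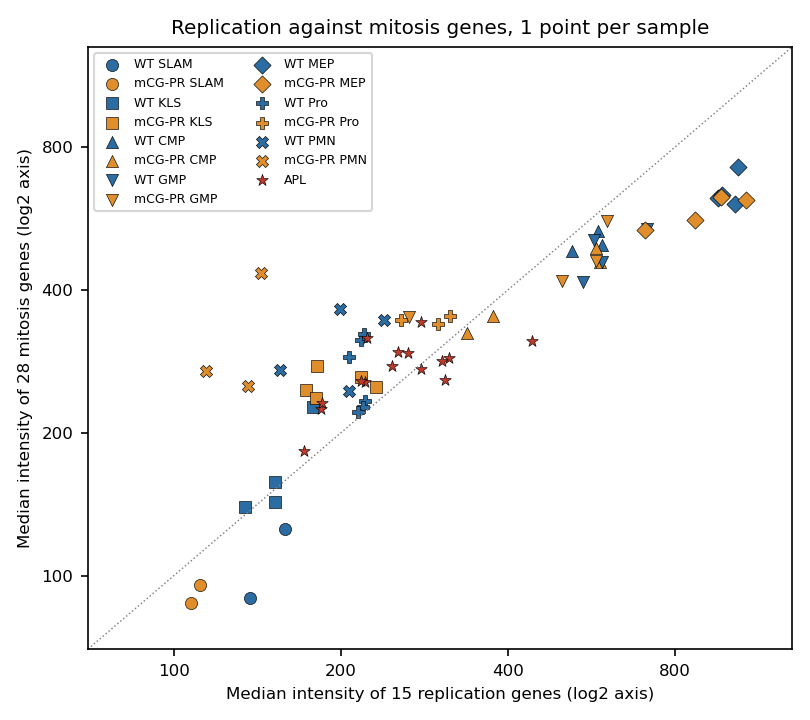
Median intensity of the 28 mitosis genes (vertical, log2 axis) against that of the 15 replication genes (horizontal, log2 axis), 1 point a sample, with a dotted line where both are equal. The 7 neutrophil samples lie above the line, and the 3 from mCG-PR mice have replication medians of 114 to 144 and mitosis medians of 250.4 to 434.

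The listed genes outside the set also had more replication than mitosis genes lower. Of the other replication genes 34 of 46 were lower and 1 higher, with a median of -0.70, and of the other mitosis genes 12 of 61 were lower and 1 higher, with a median of -0.14. Checkpoint and repair genes had 14 of 20 lower, led by Atr, the kinase that senses stalled forks, at -1.57 ± 0.19, adjusted p = 9.69e-09. Dtl, an adaptor that directs the destruction of Cdt1, differed by -1.34 ± 0.16, adjusted p = 6.83e-09, and Dck, deoxycytidine kinase, was the only gene of the other replication genes called higher, at 1.47 ± 0.16, adjusted p = 2.04e-10. Among G1 genes Cdk6 differed by -2.20 ± 0.20, adjusted p = 7.28e-12, and among the inhibitors Cdkn2d by 1.83 ± 0.61, adjusted p = 0.0162.

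Within each population, mCG-PR and WT samples were compared to ask whether PML-RARA changed the proliferation program before leukemia. In no population was any of the 43 members called in limma. The shares of all genes called were 0% in SLAM cells, 0.00552% in KLS cells, 0.0883% in CMP, 0.199% in GMP, 0% in MEP, 0.0718% in promyelocytes and 0.0442% in neutrophils, so few genes of any kind were called in these comparisons. At an unadjusted p under 0.05 there were 3 members in SLAM, 30 in KLS, 6 in CMP, 3 in GMP, 3 in MEP, 17 in promyelocytes and 7 in neutrophils. Of all 18113 genes, 946, 1728, 1851, 2017, 1385, 4282 and 1879 were under it in the same order. The analysis of variance of the study's methods, at its own threshold, run here on the gene values and not on the single probesets that the methods tested, also gave 0 members in each. With 1 fit over all 52 sorted samples, 1 member each was called in SLAM cells, CMP and promyelocytes and 5 in neutrophils, and the shares of all genes in that fit were not computed. The members' median difference was -0.31 in SLAM, 0.50 in KLS, -0.39 in CMP, -0.17 in GMP, -0.14 in MEP, 0.24 in promyelocytes and -0.14 in neutrophils, where the medians of all genes lay between -0.08 and 0.04.

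**Figure D4:**
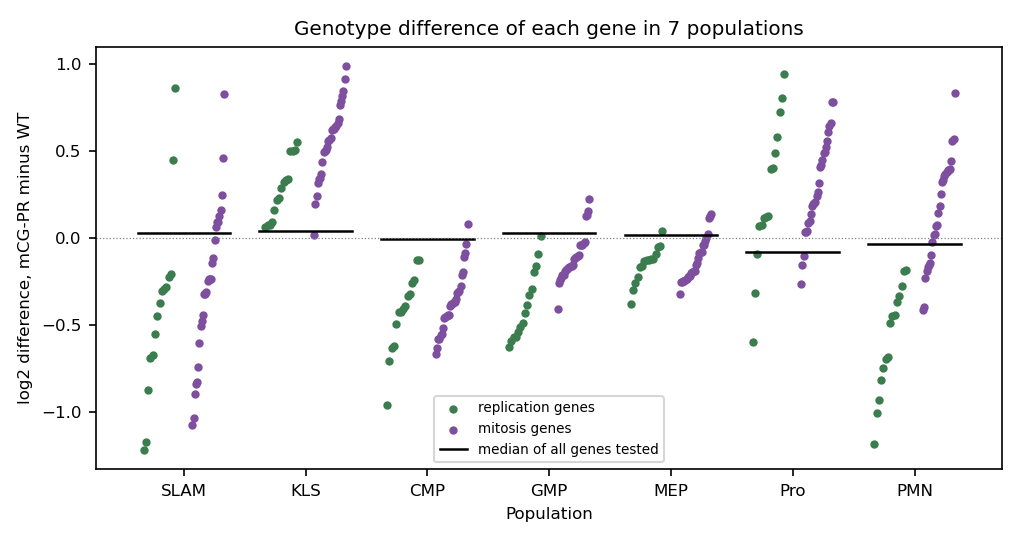
Difference between mCG-PR and WT samples (log2) of each measured member in each population, 1 point a gene, sorted within replication and mitosis genes, with a line at the median of all genes tested. KLS cells have all 43 points above 0, and no point in any population was called.

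KLS cells had the most even shift. All 43 members were above 0 in mCG-PR samples, as were 57.6% of all genes, and 30 had an unadjusted p under 0.05 and were higher, against 5.79% of all genes. The lowest adjusted p was 0.19, for Aurka, a kinase of the spindle poles, at 0.84 ± 0.17, and without WT KLS replicate 3 there was 1 call. Foxm1 (0.99 ± 0.22) and Mki67 (0.91 ± 0.23) had the largest differences. In 10 members every mCG-PR KLS sample was above every WT KLS sample, which held for 2.26% of all genes.

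The array runs differed between these groups. WT KLS replicates 1 and 2 came from a run without mCG-PR samples, and their Mki67 was 479 and 421, against 1033 and 699 in WT replicates 3 and 4 of the run that held the mCG-PR samples. Within that run the members' median was 0.26, with 39 of 43 above 0 and 9 at an unadjusted p under 0.05. Among samples of 12 or 13 weeks it was 0.42. Marker sums moved with genotype in KLS cells. The 6 stem and progenitor markers summed to 4774 to 5753 in WT and 3885 to 4595 in mCG-PR samples, and the 5 monocyte markers to 684 to 855 and 1026 to 1995, with no overlap in either. The 6 other lists overlapped, and the part of these markers in the difference was not tested.

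In CMP, 8 members were lower in every mCG-PR than in every WT sample, against 6.75% of all genes. Gins1 had the lowest adjusted p, 0.363, at -0.96 ± 0.28. The mCG-PR CMP samples spread widely among themselves, with Ube2c at 1105, 1372, 2464 and 2087 against 3021, 3149 and 1963 in WT. The 5 monocyte markers summed to 4496 to 7629.7 in WT and 3186 to 4308 in mCG-PR CMP, and the 11 neutrophil markers to 9241 to 11109.9 and 12143 to 16011, without overlap. The lowest mCG-PR CMP array for the share of probesets at 200 or above had 23.7%, against 24.7% to 25.1% in the other CMP arrays, and the part of these in the differences was not tested. Marker sums also parted by genotype without overlap in GMP (neutrophil, monocyte, erythroid, and stem and progenitor lists), in MEP (primary granule list) and in SLAM cells (neutrophil, primary granule, monocyte and dendritic cell lists). In mCG-PR MEP the primary granule sums were 2758 and 2326 in samples 5315 and 5316, and 483 and 615 in 5313 and 5314. The mCG-PR GMP array 5216 had 23.5% of probesets at 200 or above, against 24.7% to 25.1% in the other GMP arrays, and a members' median of 341. The mice differed in age, so age and genotype cannot be told apart in CMP, GMP and MEP. The WT CMP and WT GMP samples whose marker sums crossed between labels also enter these comparisons, and their part was not tested.

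In promyelocytes, 9 members were higher in every mCG-PR than in every WT sample, against 5.23% of all genes. Cdc6 came nearest to a call. It read 329, 245 and 262 in mCG-PR promyelocytes and ran from 84.9 to 177 with a median of 157 in WT promyelocytes, which were thus all under 200. The difference was 0.94 ± 0.23, adjusted p = 0.0896, or at least 1.38-fold. Mcm7 (0.80 ± 0.22), Ccne2 (0.72 ± 0.20) and Tyms (0.58 ± 0.15) also did not overlap, and Ccne1 was lower in every mCG-PR sample (-0.60 ± 0.23). With the probeset of highest mean the members' median in promyelocytes was -0.03. The mCG-PR promyelocytes and neutrophils formed a run of their own, so genotype and run cannot be told apart. The 4 primary granule markers summed to 8812 to 12738 in WT and 14357 to 16511 in mCG-PR promyelocytes, without overlap, and the other 7 lists overlapped. Both ranges lay below the 22020 to 38125 of WT GMP. The part of these markers in the differences was not tested.

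In neutrophils the differences of the helicase genes ran the other way. The 8 erythroid markers summed to 1039 to 4159 in WT and 618 to 707 in mCG-PR neutrophils, and the 5 B cell markers to 633 to 1372 and 434 to 604, without overlap, and their part was not tested. Mcm3 read 156, 165 and 146 in mCG-PR and 328, 315, 265 and 208 in WT neutrophils, a difference of -0.82 ± 0.21, adjusted p = 0.225, or, with the mCG-PR samples all under 200, at least 1.37-fold. In promyelocytes it read 577, 526 and 642 in mCG-PR mice and ran from 305 to 531 with a median of 406 in WT mice. Tyms read 75.7, 144 and 89.4 in mCG-PR and 187, 172, 162 and 147 in WT neutrophils, and 268, 257 and 267 in mCG-PR promyelocytes against WT values from 152 to 221 with a median of 170.1.

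Whether the genotype difference itself differed between populations was tested by interaction. Between promyelocytes and neutrophils 2 members were called, against 0.0883% of all genes called in that direction. The genotype difference was higher in promyelocytes by 1.30 ± 0.29, adjusted p = 0.0495, for Mcm3 and by 1.33 ± 0.27, adjusted p = 0.0441, for Tyms. Tyms was under 200 in every neutrophil sample and Mcm3 in every mCG-PR neutrophil sample, so the neutrophil side of both differences lies partly or wholly under the noise threshold and their size is uncertain. Cdc6 (1.31 ± 0.30, adjusted p = 0.0586) and Mcm4 (1.09 ± 0.26, adjusted p = 0.0673) were the next. Leaving out a single sample ended both calls for WT neutrophil replicates 1 and 3, WT promyelocyte replicates 3, 4 and 5, mCG-PR promyelocyte replicates 1 and 3 and mCG-PR neutrophil replicates 1 and 3, and gave 1 call without WT promyelocyte replicate 2 and 3 to 5 calls without WT promyelocyte replicate 1 or 6, WT neutrophil replicate 2, mCG-PR promyelocyte replicate 2 or mCG-PR neutrophil replicate 2. Among listed genes Tipin, a protein of the fork protection complex, and Rad54l, a recombination repair protein, were called, at 1.48 ± 0.31, adjusted p = 0.0441, and 1.06 ± 0.23, adjusted p = 0.0441. Between CMP and GMP, CMP and MEP, and GMP and MEP, 0 members were called, against 0.0883%, 0.0552% and 0.121% of all genes. At an unadjusted p under 0.05 there were 2, 3 and 0 members, and 1448, 1326 and 1246 of all 18113 genes.

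The leukemias were set against 3 sorted populations in 1 limma fit, so the 3 contrasts share the 15 APL samples. Leukemias came from spleen and sorted cells from marrow, and their ages and backcross differ too, so tissue, age and leukemia cannot be told apart. Some marker sums did not overlap. The 5 T and NK cell markers summed to 419 to 1740 in leukemias and 1950 to 4319 in WT promyelocytes. The 8 erythroid markers summed to 761 to 1351 and 1518 to 2424. The 5 monocyte markers summed to 867 to 1993 in leukemias and 2560 to 3016 in mCG-PR promyelocytes. The 11 neutrophil markers summed to 18764.5 to 50681 in leukemias and 56438.5 to 63664 in WT neutrophils. The other lists overlapped, and the part of markers was not tested. Against WT promyelocytes 12 members were called higher and 9 lower, where 15.9% and 10.5% of all genes were called, and the median was 0.02 against 0.06 over all genes. Those higher were the kinases Plk1, Aurka and Aurkb, the partners of Aurkb in the chromosomal passenger complex Birc5 and Cdca8, Ube2c and Cdc20, the centromere histone Cenpa, the separase Espl1, the cyclins Ccnb2 and Ccne2, and Tyms. Those lower were Mki67, Top2a, Cenpf, Rrm1, the fork factor Mcm10, and the spindle and midbody genes Kif20a, Kif23, Nusap1 and Tpx2. Kif20a was under 200 in every sample of both groups, and Espl1 and Cdc20 in every WT promyelocyte sample, so no fold is given for them.

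Plk1 ran from 179.5 to 616 with a median of 386 in the leukemias and from 157 to 252 with a median of 180.0 in WT promyelocytes, so the ranges overlapped at their ends. The difference was 1.10 ± 0.19, adjusted p = 5.65e-05, or 2.15-fold, with 7 of its 7 probesets higher. The WT promyelocyte median was under 200, so this fold is not exact. Ube2c ran from 346 to 954 with a median of 598 in the leukemias and from 206 to 406 with a median of 331 in WT promyelocytes, a difference of 0.91 ± 0.21, adjusted p = 0.00141. Both were low in SLAM and KLS cells and had their highest group medians in MEP.

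Top2a ran from 321 to 889 with a median of 639 in the leukemias and from 802 to 1198 with a median of 956 in WT promyelocytes, a difference of -0.68 ± 0.21, adjusted p = 0.0166. Cenpf, a centromere protein of the outer kinetochore, differed by -0.75 ± 0.20, adjusted p = 0.00544. Cdc20 ran from 135 to 231 with a median of 175 in the leukemias and from 79.9 to 185 with a median of 113 in WT promyelocytes, which thus stayed under 200, and its difference was 0.64 ± 0.13, adjusted p = 3.32e-04. The helicase genes were not called in this contrast, with differences from -0.51 for Mcm6 to 0.32 for Mcm2, and Mcm5 ran from 172 to 512 with a median of 356 in the leukemias and from 219 to 345 with a median of 278 in WT promyelocytes.

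WT promyelocyte replicates 1 to 3 share the array number run of the leukemias. Against these alone 7 members were called higher and 0 lower, where 8.14% and 6.18% of all genes were called. The 7 were Plk1 (1.12 ± 0.25), Ube2c (0.95), Birc5 (0.82), Aurkb (0.69), Aurka (0.69), Cdc20 (0.61) and Anln, a scaffold of the cleavage furrow (0.55). Anln was not called over all WT promyelocytes, and the 9 members called lower there were not called within the run. Leaving out WT promyelocyte replicate 4 or 6 gave 10 higher and 4 lower.

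**Figure D5:**
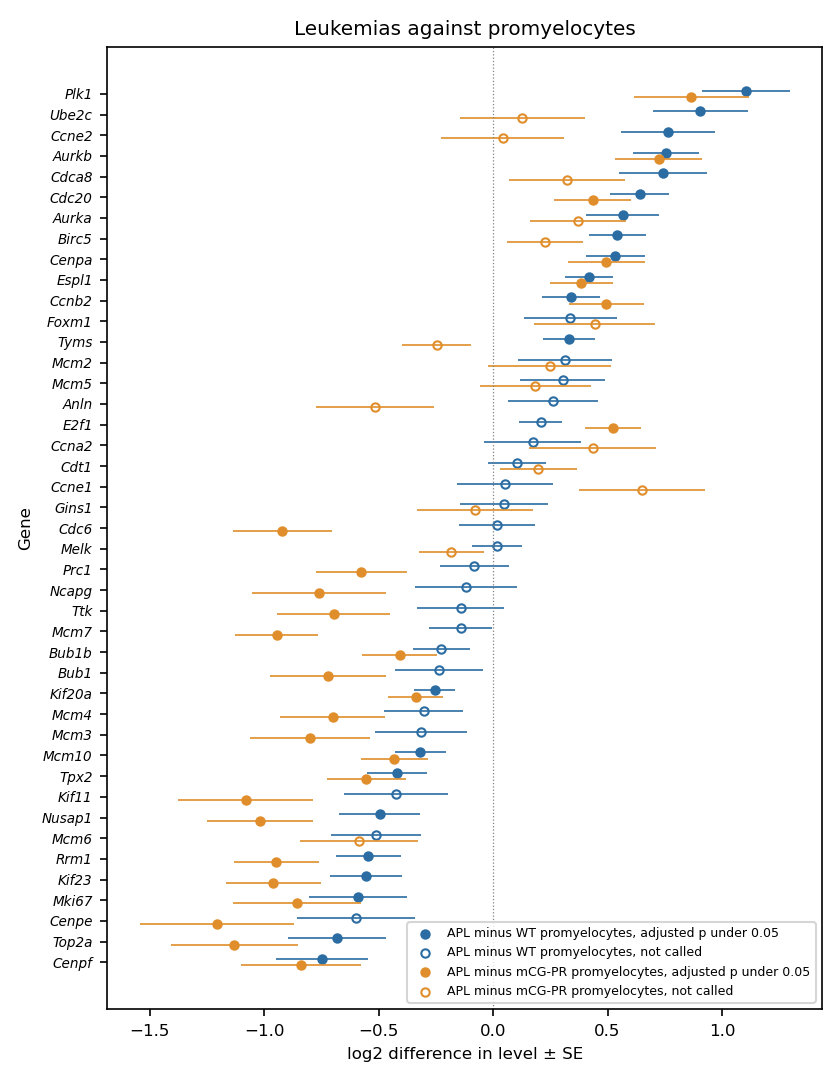
Difference (log2, with its standard error) of each measured member between the 15 leukemias and WT promyelocytes (blue) or mCG-PR promyelocytes (orange), with filled points for called genes. Plk1 is at 1.10 and 0.87, and Top2a at -0.68 and -1.13.

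Against mCG-PR promyelocytes, the preleukemic cells of the same genotype, 7 members were called higher and 20 lower. Over all genes 26.3% were called higher and 13.6% lower, and the medians were -0.34 for the members and 0.19 for all genes. Plk1 read 193, 254 and 222 in mCG-PR promyelocytes and was 0.87 ± 0.25, adjusted p = 0.00813, higher in the leukemias, and Aurkb was 0.72 ± 0.19, adjusted p = 0.00441, higher. Cenpe was -1.21 ± 0.34, adjusted p = 0.00646, and Top2a, at 1280.2, 1431 and 1195 in mCG-PR promyelocytes, -1.13 ± 0.28, adjusted p = 0.00274. In 13 members every leukemia was below every mCG-PR promyelocyte sample, which held for 7.21% of all genes. They included Kif11, the kinesin that pushes spindle poles apart, Nusap1, Rrm1, Mcm7, Cdc6 and Mki67. Without mCG-PR promyelocyte replicate 1, 2 or 3 there were 11, 17 and 13 calls, and with the probeset of highest mean 6 members were higher and 6 lower with a median of 0.12. The mCG-PR promyelocytes lie in a run without leukemias, so run and leukemia cannot be told apart.

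Against WT neutrophils 8 members were called higher and 2 lower, where 18.3% and 11% of all genes were called, with a median of 0.14 against 0.10 over all genes. Ccne2 was higher by 0.93 ± 0.24, adjusted p = 0.00302, and Mcm2 by 0.89 ± 0.24, adjusted p = 0.00488. Kif23 ran from 202 to 354 with a median of 236 in the leukemias and read 428, 345, 688 and 718 in WT neutrophils, a difference of -1.06 ± 0.18, adjusted p = 4.65e-05. Nusap1, a microtubule protein of the spindle, differed by -0.65 ± 0.21, adjusted p = 0.0171. Without WT neutrophil replicate 3 there were 6 calls and without replicate 4 there were 3. Replicates 1 and 2 share the run of the leukemias, and Mki67 read 1006, 445, 1549 and 1362 in the 4 samples.

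Listed genes around the members showed 20 of 61 mitosis and 9 of 46 replication genes higher in leukemias than in WT promyelocytes, and 4 and 4 lower. Cenpw, a centromere protein, was higher by 1.69 ± 0.21, adjusted p = 4.85e-07, and Pola1, the catalytic subunit of polymerase alpha, differed by -1.05 ± 0.21, adjusted p = 3.16e-04. Among G1 genes Cdk2 was higher by 1.22 ± 0.15, adjusted p = 1.80e-07, and Ccnd2, cyclin D2, differed by -1.03 ± 0.23, adjusted p = 0.00124. Against mCG-PR promyelocytes 10 of 61 mitosis and 5 of 46 replication genes were higher and 14 and 13 lower, and against WT neutrophils 15 of 61 and 17 of 46 were higher and 0 and 2 lower.

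The leukemias varied among themselves, with members' medians from 176 to 319. Against the age of the mouse at harvest, 0 members were called in limma, and 0% of all genes. The members' median slope was -0.19 on the log2 scale per 100 days, 40 of 43 slopes were below 0, as were 43.6% of all genes, and 24 members had an unadjusted p under 0.05 and a slope below 0, against 6.92% of all genes. The helicase genes led, with Mcm6 at -0.53 ± 0.10, adjusted p = 0.123, Mcm3 at -0.53 ± 0.12 and Mcm5 at -0.49 ± 0.10. Without the leukemia of 553 days the median slope was -0.23 and again 0 members were called.

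The 2 libraries labelled Ctsg KO KLS had members' medians of 281 and 191. They differed from each other in single genes, with Cdc20 at 358 and 95.5, E2f1 at 111 and 368 and Mcm3 at 499 and 182. Mki67 was 1252 and 1441. No comparison was made with them, given their marker sums.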

How the data were processed

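Expression was measured in 69 samples, 52 sorted WT and mCG-PR samples, 2 sorted Ctsg KO samples and 15 leukemias. The authors' deposited values are linear intensities of 451804 probesets, made by RMA in Expression Console, and the submitters' processing notes also name Partek 6.6 and the mm9 build. RMA sets all arrays to a common distribution, so levels are relative within the series. Intensities ran from 2.01 to 20140.2 and were taken to log2 with no pseudocount. Of the probesets 259411 carried 1 gene symbol in the platform annotation, 1897 several and 190496 none. Only singly named probesets that reached 200 on at least 1 array were used (169269), and a gene's value is their median.

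Groups were taken from the sample labels. Genotypes were compared within each population, populations in 1 fit over the 52 sorted samples averaged over genotypes, and leukemias in a fit with promyelocytes and neutrophils, each with limma 3.58.1 (lmFit, eBayes) in R 4.3.3 and statmod 1.5.0 for random blocks. P-values were adjusted by Benjamini-Hochberg over 18113 genes and called at an adjusted p under 0.05. These replaced the one-way analysis of variance of the methods (unadjusted p under 0.001 and at least 2-fold), which was run as an alternative on the gene values, where the methods tested core probesets. Where every sample of a group was under 200, the fold is a bound set at 200, or none where that bound was under 1. The fits were tested on simulated data. The number of arrays in a group limits the precision, and the sorted samples came from individual mice.

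The rule for named genes allowed any of the 46 members. It gave values in every sample for Mki67, Top2a, Ccnb1, Cdc20, Mcm5, Pcna, Ccne1 and E2f1, of which Ccnb1 and Pcna were not measured and the others are given where a result turns on them, and for up to 2 called members with the largest rise and fall of a comparison, and up to 2 called genes in each direction from lists of other replication genes, other mitosis genes, G1 regulators, CDK inhibitors and S-phase checkpoint and repair genes. Other members were described by group or as the next in order, some after their values were seen. The members and lists were chosen with earlier results of these data known. Alternatives were another probeset per gene, no intensity filter, a second quantile normalization, other fits, runs, ages and blocks, and leaving out each sample. Replicate numbers were not used to pair samples in the main fits. Correlations of same-numbered samples ran from -0.363 to 0.177, but with so few samples in a group they cannot show whether samples shared a mouse. The CMP, GMP and MEP labels share last digits, and whether such samples came from the same mice was not resolved. Columns with no sample numbered 0.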

Additional observations from a re-analysis of the deposited data

Results flagged for a closer look

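Cdc20 in WT promyelocyte replicate 4 stood far above the other 5 WT promyelocyte samples, at 185 against 79.9 to 114. It was the only such value in 81 tests on groups of 4 to 10 samples, and these tests reused the same samples. Chance alone would give about 1 in 20, so 1 such value in 81 tests is no more than chance gives. Replicate 4 was also the only WT promyelocyte sample from its array number run.

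The genotype difference of Mcm3 and of Tyms was higher in promyelocytes than in neutrophils, by 1.30 and 1.33 on the log2 scale in the limma interaction test. In 9 of 16 refits that each left out 1 sample, neither was called. Tyms was under 200 in every neutrophil sample and Mcm3 in every mCG-PR neutrophil sample.

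The first library labelled Ctsg KO KLS, which no comparison used, had a members' median of 281 against 139 to 224 in WT KLS samples. Its neutrophil markers summed to 51574 or more, against at most 11022 in WT KLS samples, and their part in the value was not tested.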

How the results depend on the processing

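Counts of called members and members' medians were recomputed under each alternative, and 667 of 727 values stayed close to the main value. For a median, close meant a shift smaller than the spread between samples of a group. A median near 0 could thus change side and still be counted as close. A count of calls adds both directions, so it can stay close while calls turn. Shares of all genes were not computed for most alternatives, so their counts describe the members alone. From KLS to CMP and from GMP to promyelocytes, the probeset of highest mean gave calls in both directions, where the main fit gave a single direction. The largest changes came with each gene's probeset of highest mean. It turned the median to -0.033 for the genotype in promyelocytes, to 0.10 from GMP to promyelocytes and to 0.12 for leukemias against mCG-PR promyelocytes (12 calls). It gave -0.91 for the genotype in SLAM cells, 1.44 from SLAM to KLS, 0.22 from KLS to CMP, 13 calls from CMP to MEP, 10 calls and 0.30 from GMP to MEP, and 1 call for the genotype in neutrophils. The cause was not tested. With 1 fit over 52 samples the genotype gave 1 call in SLAM, 1 in CMP, 1 in promyelocytes and 5 in neutrophils. A filter within the comparison gave -0.66 in SLAM cells, and no filter gave 1 interaction call between promyelocytes and neutrophils. The run as a block, or the run with both genotypes alone, gave 0.26 in KLS cells, and the run of the leukemias alone 7 calls against WT promyelocytes.

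Requiring 2-fold left 2 calls from CMP to MEP, 4 from GMP to MEP, 13 from GMP to promyelocytes, 3 from promyelocytes to neutrophils, and 1, 4 and 1 for leukemias against WT promyelocytes, mCG-PR promyelocytes and WT neutrophils. WT samples alone gave 11 calls (median 0.60) from SLAM to KLS, a median of 1.52 from KLS to CMP, 10 calls from CMP to MEP, 16 from GMP to MEP and 5 from promyelocytes to neutrophils. For mCG-PR samples alone the medians were 1.23 and 0.68 in the SLAM to KLS and KLS to CMP steps, with 19 calls from GMP to promyelocytes and 12 from promyelocytes to neutrophils. An unadjusted p gave 24 calls for leukemia age.

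The replicate block was fitted although the numbers were not shown to pair samples. It gave a median of 0.43 for the genotype in promyelocytes against 0.24 without it. Elsewhere it gave 0 calls for the genotype in SLAM, KLS, promyelocytes and neutrophils, 32 from CMP to MEP and 31 from GMP to MEP. A random block for the run, added for KLS to CMP after seeing the data, left 30 calls from SLAM to KLS, 37 from KLS to CMP, 25 from GMP to promyelocytes and 19 from promyelocytes to neutrophils.

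Leaving out 1 sample at a time, the SLAM genotype median ran from -0.59 to -0.15, KLS genotype calls from 0 to 1, the SLAM to KLS median from 0.75 to 1.17, interaction calls between promyelocytes and neutrophils from 0 to 5, and calls for leukemias from 14 to 23 against WT promyelocytes, 11 to 27 against mCG-PR promyelocytes and 3 to 12 against WT neutrophils. The genotype median in neutrophils ran from -0.22 to 0.02.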
